A study of Mus musculus with 2 samples.

Results

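Endothelial cells of pancreatic islets were taken from the wild-type (WT) library of a mouse single-cell study and described gene by gene against the other cells of the same library. Members were chosen by their counts. A member was a cell barcode with at least 500 genes and a total of unique molecular identifiers (UMIs, each counted as 1 captured transcript) above a limit that lay between the 5641 UMIs of the lowest member and the 5512 UMIs of the nearest barcode outside. At most 15% of its UMIs came from mitochondrially encoded genes and under 10% from the insulin genes Ins1 and Ins2 together. At least 3 of 7 endothelial genes (Plvap, Flt1, Esm1, Kdr, Pecam1, Cdh5 and Emcn) had 2 or more UMIs each. The rule found 113 of 4541 WT cells (2.49%, 2.06 to 2.98), which is 11.4% (9.45 to 13.5) of the 995 cells under the insulin limit. Intervals throughout are exact 95% binomial or Poisson intervals and cover counting error only.

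The series set pancreatic islets of male, 8-week-old mice fasted for 12 hours against each other by genotype, with 1 WT library and 1 library of mice with a beta cell specific miR-203 transgene. The transgenic library was not analysed here, and the labels name neither the promoter of the transgene nor the number of mice behind a library. The labels' sample preparation text speaks of sorted goblet cells of the gut, while tissue and title read islet. In the 4428 other WT cells insulin took a median of 46.7% of the UMIs. With 1 library there is no replicate, so every difference below is a description without a test.

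Endothelial cells line the blood vessels that run through the islet. Islet capillaries are dense and fenestrated: their walls are pierced by small pores closed by a diaphragm of the protein PLVAP, through which glucose reaches the endocrine cells and hormones reach the blood. Beta cells release vascular endothelial growth factor A (VEGF-A), which maintains this dense vessel bed through receptors on the endothelium, and the endothelium in turn lays down the basement membrane on which beta cells rest. Pericytes are contractile cells wrapped around the same capillaries, inside the same basement membrane.

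The members were small in RNA content beside the endocrine cells. They held a median of 8048 UMIs (5641 to 20584) and 2697 genes (1525 to 4124), against 21832.5 UMIs (5664 to 88243) and 3427 genes in the other WT cells. Among those other cells, the 70 with macrophage markers (macrophage marker cells, defined under processing) held a median of 10650.5 UMIs and 2243.5 genes. Mitochondrially encoded genes took a median of 2.23% of the UMIs of the members and insulin 2.17% (1.01 to 8.89). The summed counts were 975467 UMIs in the members and 103667977 in the other cells. If all Ins2 in the members was free RNA from broken cells, free RNA made up 6.43% of their UMIs, and a bound on free RNA for a gene below rests on that figure. It takes free RNA to have the make-up of RNA in droplets of at most 200 UMIs, and islet hormones other than insulin exceeded it.

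Most members lay well inside the rule. Among the 995 cells under the insulin limit, 856 had none of the 7 genes at 2 UMIs, 25 had 1 gene, 1 had 2 genes, 1 had 3, 1 had 4, 12 had 5, 31 had 6 and 68 had all 7. The member nearest the insulin limit held 8.89% insulin and the next 3.23%. A further 9 cells met the rest of the rule with 16.08% to 48.58% insulin and were not members. Below the UMI limit, 98 barcodes of 2000 UMIs or more met the rest of the rule.

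Sequences are shown for the start of 4 genes whose levels the following results turn on, and for 1 microRNA that lies in an endothelial gene. The first 3 are promoters of the VEGF receptor gene Flt1, the endomucin gene Emcn and the other VEGF receptor gene Kdr. Capitals mark each AGGAAG, or CTTCCT where it lies on the other strand, a core that factors of the ETS family bind. Flt1 and Emcn hold 2 matches each, and Kdr and the pericyte gene Rgs5 hold 0. Each run is the 250 bases before the gene's start, 5′ to 3′ on the gene's strand, from RefSeq on GRCm38.p6.
Flt1, chr5:147726012-147726261, minus strand: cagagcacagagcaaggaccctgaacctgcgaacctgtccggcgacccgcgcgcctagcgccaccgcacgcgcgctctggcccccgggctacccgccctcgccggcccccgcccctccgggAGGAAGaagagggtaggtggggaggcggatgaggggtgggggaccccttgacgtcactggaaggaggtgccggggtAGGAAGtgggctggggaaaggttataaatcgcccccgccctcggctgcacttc
Emcn, chr3:137340828-137341077, plus strand: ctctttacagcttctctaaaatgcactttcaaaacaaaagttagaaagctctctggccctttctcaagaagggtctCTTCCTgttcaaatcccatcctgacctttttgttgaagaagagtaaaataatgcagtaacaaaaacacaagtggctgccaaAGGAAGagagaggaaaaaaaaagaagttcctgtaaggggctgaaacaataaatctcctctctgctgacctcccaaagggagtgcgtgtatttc
Kdr, chr5:75978456-75978705, minus strand: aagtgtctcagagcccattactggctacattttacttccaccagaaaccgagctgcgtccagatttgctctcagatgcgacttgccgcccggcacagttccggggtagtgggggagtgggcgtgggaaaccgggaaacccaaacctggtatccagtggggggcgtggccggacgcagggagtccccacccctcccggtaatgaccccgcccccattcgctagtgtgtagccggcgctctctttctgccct
Rgs5, chr1:169655251-169655500, plus strand: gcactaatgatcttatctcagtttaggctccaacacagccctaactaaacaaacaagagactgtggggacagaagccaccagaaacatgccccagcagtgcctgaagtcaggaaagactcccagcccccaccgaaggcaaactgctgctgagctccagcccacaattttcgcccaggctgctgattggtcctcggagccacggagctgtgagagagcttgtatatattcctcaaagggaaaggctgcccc
miR-126a-3p, chr2:26591402-26591423, plus strand, seed in capitals: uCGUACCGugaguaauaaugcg

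The ETS-type letters, searched on both strands, stood in 12 of 22 promoters of the rule genes, markers and a list of pan-endothelial genes (54.5%). A promoter was at hand for 18 of 36 gene symbols, where older names of a gene were counted apart. They stood in 9686 of all 32851 mouse promoters of the same length (29.5%) and in 0 of 8 promoters of pericyte and smooth muscle genes (8 of 14 genes matched). In the list of endothelial transcription factors they stood in 4 of 19 promoters (21.1%), and the promoters of Esm1 and Igfbp3 held 0 matches. The GATA-type letters AGATAA, which read TTATCT on the other strand, stood in 0 of the 22 against 9.99% of all promoters. The SOX-type letters AACAAT, which read ATTGTT on the other strand, stood in 3 of the 22 (13.6%) against 9.42%. In Flt1 the ETS-type matches begin 129 and 53 bases before the start, and in Emcn 174 and 93 bases before it. The matches describe these letters in this window and nothing more. The microRNA lies in introns of Egfl7 (chr2:26580014-26593120), with 0 exons of 12 coding transcripts overlapping it, and a poly-A library does not measure the mature microRNA.

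Levels are given as counts per 1000000 UMIs of a set (CPM). A log2 value is the ratio of (CPM + 1) in the members over the other WT cells, relative to the median gene compared, which itself stood 0.97 higher in the members. Adding 1 CPM makes the ratio too small where a gene is nearly absent from 1 set. Of 6298 genes at 20 CPM or more in either set, 1477 (23.5%) stood at least 2-fold higher and 1403 (22.3%) at least 2-fold lower in the members. The rule used this contrast, so counts of list genes are set beside these shares without reading support from them. A gene nearly absent from 1 set reaches the floor of 20 CPM only through the other set, which fixes its side. Where a whole list of such genes stands on 1 side, the count was set by the floor. The split depended on the scaling: without the shift it was 3101 higher and 683 lower, and with hormone and mitochondrial UMIs left out of the total and no shift, 1486 higher and 2458 lower. Without the shift, Itgav, Bmpr1a, Igf1r and Fosb, given as lower below, were within 2-fold, and Cxcl10, Dll1, Foxo1, Gapdh, H2-K1 and Pdgfa, given as within 2-fold, were over 2-fold higher. Gene lists hold 424 genes in 49 groups.

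The genes that chose the set are described first. Plvap, which builds the diaphragm of fenestrae (chr8:71497765-71511752 in GRCm38), stood at 3262 CPM (3150 to 3377) in the members, with 0 UMIs in the lowest cell, 25 in the median cell and 89 in the highest. It stood at 8.72 CPM in the other WT cells. With every cell thinned to the UMI limit of the rule, 99.1% of members and 4.11% of other cells had a Plvap UMI (112 of 113 members unthinned), and free RNA gives at most 4.83 CPM in the members.

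Esm1, the secreted endothelial proteoglycan endocan (chr13:113209659-113218098), stood at 2460 CPM (2363 to 2561) against 5.61, with 0 to 86 UMIs a cell and a median of 20. Emcn, an endothelial sialomucin (chr3:137341067-137432185), stood at 1276 CPM (1206 to 1349) against 2.93, with 0 to 35 UMIs and a median of 10. The adhesion molecule gene Pecam1 stood at 615 CPM against 4.01, and Cdh5, which encodes VE-cadherin of endothelial junctions, at 322 CPM (287 to 360) against 0.791. These levels fixed membership and are no finding.

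The markers outside the rule were less even over the cells. Igfbp3, a binding protein of insulin-like growth factors, stood at 1659 CPM against 3.14, in 107 cells, from 0 to 89 UMIs with a median of 10. Ly6c1, a surface protein of endothelial cells and some leukocytes, stood at 1996 CPM against 6.06, in 112 cells, from 0 to 56 UMIs with a median of 15. Cd300lg, a lipid-binding receptor of capillary endothelium, stood at 374 CPM (337 to 415) against 0.926, in 100 cells, with a median of 2 UMIs and at most 13. Each of the 3 was thus found in most members, and Cd300lg only at a few UMIs a cell. The last 300 bases of Ly6c1 and Ly6c2 are 95.7% alike, so reads of the pair are uncertain.

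**Figure D1:**
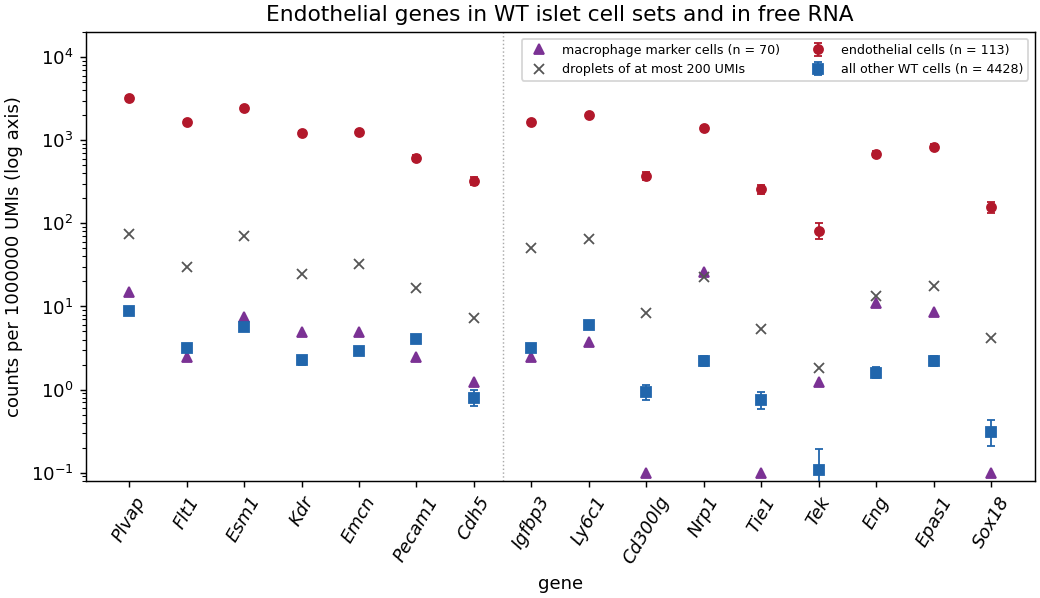
Summed level in CPM on a log axis (values of 0 drawn at 0.1) of 16 endothelial genes (x axis) in the 113 members, 70 macrophage marker cells, the 4428 other WT cells and droplets of at most 200 UMIs; bars on members and other cells are counting intervals, and the dotted line separates the rule genes from the rest. Plvap stands at 3262 CPM in the members and 14.8 CPM in macrophage marker cells, and every gene drawn is highest in the members.

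Receptors of VEGF stood high in the members, and the ligand genes were low or sparse. Kdr, the main signalling receptor of VEGF-A (chr5:75932827-75978458), stood at 1231 CPM (1163 to 1303) against 2.26, with 0 to 26 UMIs a cell and a median of 10. Flt1, which binds VEGF-A with high affinity and restrains its signal (chr5:147561604-147726011), stood at 1673 CPM (1593 to 1756) against 3.14, with 0 to 41 UMIs and a median of 13. Nrp1, a VEGF co-receptor that the rule did not name, stood at 1417 CPM (1343 to 1493) against 2.22, in 110 cells, with a median of 12 UMIs and at most 30. All 5 receptor genes were over 2-fold higher (median log2 7.59), which is no finding for Flt1 and Kdr, as both chose the members. The median is the value of Kdr itself, and the 5 genes together held 9.61 CPM in the other WT cells. The remaining pair was lower in level: Flt4, a receptor of VEGF-C best known from lymphatic vessels, at 113 CPM (92.7 to 136) in 68 cells, and Nrp2 at 109 CPM.

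Of 5 VEGF ligand genes, 3 reached 20 CPM in a set, with 1 higher and 2 lower in the members. Vegfa stood at 27.7 CPM (18.2 to 40.3) in 24 members, at most 3 UMIs each, against 83.0 CPM in the other cells (log2 -2.52), and free RNA gives up to 5.58 CPM of it. Vegfb stood at 8.20 against 28.1 CPM. Pgf, a placental growth factor gene whose product binds FLT1, was the exception at 51.3 against 11.8 CPM (log2 1.06), though with a floor of 50 CPM it was within 2-fold (log2 0.78). Vegfc (4.10 CPM) and Figf, the gene of VEGF-D (1.03 CPM), stayed under 20 CPM in both sets.

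The Tie receptors and their partners were present, with the ligand Angpt2 uneven over the cells, and all 4 genes compared were over 2-fold higher (median log2 5.75). The 6 genes of this list together held 3.14 CPM in the other WT cells, so the floor of 20 CPM fixed this count. Tie1 stood at 256 CPM (226 to 290) against 0.743, and Tek, the receptor of angiopoietins, at 82.0 against 0.106. Ptprb, the endothelial phosphatase that acts on TEK, stood at 298 against 0.752 CPM. Angpt2, the ligand that antagonises TEK and is known from vessels under remodelling, stood at 130 CPM (109 to 155) against 1.32, in 52 cells with at most 16 UMIs. Angpt1, which activates TEK and is usually made by mural cells, was at 2.05 CPM, and Angptl2 at 14.4 CPM. Of the apelin system, Apln was at 20.5 CPM in 5 cells, and its receptor Aplnr and Apela were at 0 UMIs, which allows up to 3.08 CPM (3 counts).

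Genes shared by most endothelial beds were high as a group: of 24, 23 reached 20 CPM and all 23 were over 2-fold higher (median log2 6.07). Together the 24 held 29.1 CPM in the other WT cells. Most thus reached 20 CPM only through the members, which largely fixed that count. Egfl7, a secreted endothelial factor whose gene carries the microRNA shown above, stood at 945 CPM (885 to 1008) in 111 cells, with 0 to 27 UMIs and a median of 7. Eng, a co-receptor of TGF-beta family ligands, stood at 681 against 1.60 CPM. Gpihbp1, which carries lipoprotein lipase to the capillary wall, stood at 452 against 1.07 CPM. Ramp2, a partner of the adrenomedullin receptor, was among the lowest at 173 against 6.51 CPM (log2 3.57). Cldn5, a tight junction gene of endothelium, was at 37.9 CPM, and 32 of its 37 UMIs came from 1 cell described below.

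The wall of the vessel was described by fenestral and caveolar genes, junctions and the basement membrane. All 9 fenestral and caveolar genes were over 2-fold higher (median log2 5.46), among them Cav1, the coat protein of caveolae (202 against 1.91 CPM), Ptrf, which encodes cavin 1 (334 against 2.88 CPM), and Ehd4, a membrane-shaping ATPase (511 CPM). The 9 together held 36.3 CPM in the other WT cells, so the floor of 20 CPM largely fixed this count. Prkcdbp (cavin 3) stood at 337, Ehd2 at 124, Cav2 at 122 and Sdpr (cavin 2) at 92.3 CPM.

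Junction genes were split. Of 13 compared, 8 were higher, 3 lower and 2 within 2-fold (median log2 2.80). Esam, an endothelial adhesion molecule, stood at 437 against 3.05 CPM, and Gja1, the gap junction gene of connexin 43, at 103 against 0.222 CPM. Gja4 (66.6 CPM) and Pcdh12 (28.7 CPM), another junctional cadherin gene, were among the higher ones. The epithelial tight junction genes Ocln (6.15 against 29.7 CPM, log2 -3.08) and Cgn (7.18 against 26.5 CPM, log2 -2.72) were the lowest.

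All 13 basement membrane genes compared, of 14, were over 2-fold higher (median log2 5.28). The 14 together held 23.8 CPM in the other WT cells, so the floor of 20 CPM largely fixed this count. Sparc, a collagen-binding matrix protein, stood at 1206 CPM (1138 to 1276) against 3.51, with 0 to 29 UMIs a cell and a median of 9. The collagen IV chains that form the sheet, Col4a1 and Col4a2, stood at 716 and 425 CPM against 7.28 and 1.10. Hspg2, the gene of perlecan, stood at 401 CPM, and the lowest were Lamc1, a laminin chain (104 against 5.76 CPM, log2 2.98), and Agrn (30.8 CPM, log2 3.02). Of 7 integrin genes compared, 6 were higher and 1 lower (median log2 1.83); the lower was Itgav at 51.3 against 54.1 CPM (log2 -1.05).

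Endothelial transcription factor genes were mostly higher: of 20 compared, 18 were over 2-fold higher and 2 within 2-fold (median log2 4.47). Epas1, which encodes HIF-2 alpha, stood at 833 CPM (777 to 893) in 112 cells, with 0 to 20 UMIs and a median of 6. The SoxF genes Sox18 and Sox7 stood at 156 and 120 CPM, Gata2 at 146 CPM, and the ETS family genes Ets1, Fli1 and Erg at 245, 93.3 and 90.2 CPM. Klf2 and Klf4, which blood flow is known to induce, stood at 299 and 497 CPM against 29.3 and 23.3 (log2 2.34 and 3.38). Ets2 (log2 -0.37) and Foxo1 (log2 0.37) were within 2-fold, and Gata4 was at 0 UMIs.

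**Figure D2:**
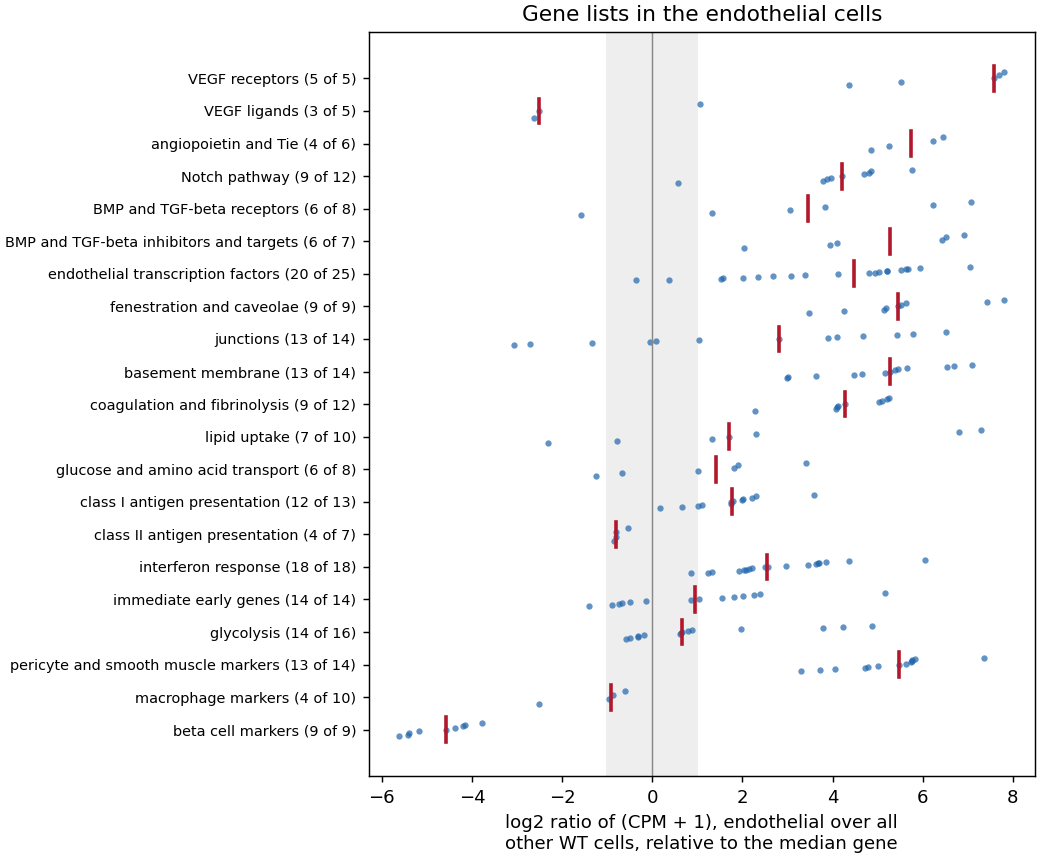
Log2 ratio of (CPM + 1), members over all other WT cells, relative to the median gene, for the genes compared in 21 lists (dots, 1 per gene) with the list median (red bar) and the band of 2-fold either way (grey). Medians run from 7.59 for VEGF receptors to -4.59 for beta cell markers. The former list holds the rule genes Flt1 and Kdr, and the latter Ins1 and Ins2, which the rule limited.

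Notch genes were higher in 8 of 9 compared (median log2 4.21). The 12 genes of the list together held 26.0 CPM in the other WT cells, so the floor of 20 CPM largely fixed this count. Hes1, a transcriptional target, stood at 497 against 8.75 CPM, Notch1 at 242 against 3.32 and the endothelial ligand gene Dll4 at 92.3 against 1.57 CPM. Notch4, an endothelial receptor, stood at 71.8 CPM, Hey1, another target, at 78.9 CPM, and Dll1 was within 2-fold (20.5 against 6.36 CPM, log2 0.58). Notch3 (123 CPM), Jag1 (63.6 CPM) and Heyl (30.8 CPM) were high in another pattern among the cells, given with Rgs5 below.

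The BMP and TGF-beta pathway was described by its targets, receptors and ligands. Id1 and Id3, inhibitors of transcription that BMP signals induce, stood at 1215 CPM (1147 to 1286) and 1719 CPM (1638 to 1803), against 4.16 and 9.12 CPM, with medians of 10 and 12 UMIs a cell. Smad6, an inhibitor induced by the same signals, stood at 286 against 0.598 CPM and Smad7 at 296 CPM. All 6 targets and inhibitors compared were over 2-fold higher (median log2 5.27), and Bmper was at 0 UMIs.

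Of 6 receptor genes compared, 5 were higher and 1 lower (median log2 3.44). Acvrl1, the endothelial receptor ALK1, stood at 351 against 1.40 CPM, and Bmpr2, its partner, at 175 against 9.80 CPM. Bmpr1a was the lower one at 15.4 against 24.1 CPM (log2 -1.59). Among ligands, Tgfb1 stood at 515 CPM (471 to 562) in 108 cells, with 0 to 15 UMIs and a median of 4, and macrophage marker cells held 260 CPM. Tgfb2 was at 23.6 CPM and Bmp4 at 9.23 CPM, and Gdf2, a circulating ligand of ALK1 made in liver, and Inhba were at 0 UMIs.

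Among genes of vascular tone, Ednrb, the endothelin receptor of endothelium, stood at 276 against 0.588 CPM, and its ligand gene Edn1 was at 19.5 CPM, below the 20 CPM floor. Nos3, the endothelial nitric oxide synthase, stood at 57.4 against 2.54 CPM in 42 cells, and Ace, which makes angiotensin II, at 210 CPM. All 6 vasoactive genes compared were over 2-fold higher (median log2 4.26). The 9 genes of that list together held 8.26 CPM in the other WT cells, so the floor of 20 CPM largely fixed this count. Of the Wnt genes of endothelium, 4 of 6 compared were higher (median log2 2.96), among them the Norrin receptor gene Fzd4 (67.7 CPM) and its partner Tspan12 (165 CPM).

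Growth factor genes were higher in 7 of 8 compared (median log2 4.04). Kitl, the ligand of the KIT receptor, stood at 123 CPM and Pdgfb, which draws pericytes to vessels, at 66.6 CPM. Pdgfa was within 2-fold (208 against 78.7 CPM, log2 0.42). Hgf, a growth factor known to act on beta cells, and Wnt5a were at 0 UMIs.

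Anticoagulant genes were found and von Willebrand factor was nearly absent. All 9 coagulation and fibrinolysis genes compared were over 2-fold higher (median log2 4.27). The thrombin receptor gene Thbd (thrombomodulin) stood at 106 CPM, Procr, the protein C receptor gene, at 90.2 CPM, Plat, a plasminogen activator, at 129 CPM and Tfpi, an inhibitor of the tissue factor pathway, at 22.6 CPM. Vwf had 3 UMIs in 3 cells (3.08 CPM), and all 7 UMIs of F8 lay in 1 cell.

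Of 10 genes compared that bear on leukocyte adhesion, 8 were over 2-fold higher (median log2 3.53). Icam1 stood at 114 against 2.74 CPM, below the 181 CPM of macrophage marker cells, and Icam2 at 122 CPM. Vcam1 was at 9.23 CPM, and Sele, Selp, Madcam1 and Ackr1, genes of inflamed or venular endothelium, were at 0 UMIs. The chemokine gene Cxcl10 was within 2-fold at 168 against 48.6 CPM (log2 0.80), and stood at 2233 CPM in macrophage marker cells.

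Transport genes did not stand on one side. Of 7 lipid uptake genes compared, 5 were higher, 1 lower and 1 within 2-fold (median log2 1.70). Fabp4, a fatty acid binding protein, stood at 1177 CPM (1110 to 1247) against 2.85 in 87 cells, with a median of 3 UMIs and 153 in the highest cell. Scarb1, a receptor of high-density lipoprotein, stood at 135 CPM (log2 2.29). Cd36, a fatty acid receptor of many capillaries, stood at 20.5 against 2.38 CPM in 13 cells, and Lpl at 28.7 against 25.1 CPM (log2 -0.79). Set against only the other cells under the insulin limit, Cd36 did not stand higher (log2 -0.0038) and the list median was 0.34.

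Of 6 glucose and amino acid transport genes, 4 were higher and 1 lower (median log2 1.42). Slc3a2, the heavy chain of amino acid exchangers, stood at 467 against 63.1 CPM, and the glucose transporter gene Slc2a1 at 34.9 against 8.00 CPM (log2 1.02, and 0.90 with each cell given equal weight). Slc16a1, a lactate transporter known to be silent in beta cells, stood at 26.7 CPM (log2 3.42).

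Binding proteins of insulin-like growth factors included a gene found in every member, and all 4 compared were over 2-fold higher (median log2 4.45). Igfbp7 stood at 6819 CPM (6656 to 6985) against 121, from 6 to 191 UMIs a cell with a median of 56. Free RNA gives at most 15.8 CPM of it. Igfbp5 (90.2 CPM) and Igfbp4 (59.5 CPM) were lower in level, and Igfbp2 was at 0 UMIs. Of the insulin and IGF receptor genes, Insr stood at 61.5 against 9.96 CPM in 38 cells (log2 1.54), while Igf1r (33.8 against 45.3 CPM, log2 -1.38) and Irs2 (21.5 against 60.7 CPM, log2 -2.43) were lower relative to the median gene.

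Most interferon-related and class I antigen genes stood above the other WT cells, and 7 class I genes stood below macrophage marker cells. Of 12 class I genes compared, 10 were over 2-fold higher than in the other WT cells (median log2 1.77). B2m, the light chain of class I molecules, stood at 2763 against 117 CPM, with 0 to 138 UMIs a cell and a median of 21. H2-D1 stood at 1467 against 222 CPM and H2-K1 at 534 against 242 CPM (log2 0.17). Against macrophage marker cells 0 class I genes were over 2-fold higher and 7 lower (median log2 -1.24), where 21.6% of 6302 genes were higher and 22% lower.

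Of 18 interferon response genes, 17 were higher than in the other WT cells (median log2 2.54). Ifitm3, a membrane protein that restricts viruses, stood at 1888 against 13.5 CPM, in all 113 members, with 1 to 48 UMIs and a median of 13. It stood above the 612 CPM of macrophage marker cells. Isg15 stood at 725 CPM and Bst2 at 323 CPM. Over the whole list 1 gene was over 2-fold higher and 7 lower than in macrophage marker cells (median log2 -0.59). Ly6a (Sca-1) stood at 1103 against 6.69 CPM and Ly6e at 1022 against 86.6 CPM.

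Class II genes lay in few cells. Cd74, the class II invariant chain, stood at 614 against 453 CPM, was found in 38 members and reached 417 UMIs in 1 of them, and in macrophage marker cells stood at 44364 CPM. A set of 3 members had 3 or more of 10 macrophage markers at 2 UMIs, with 9520, 10495 and 17547 UMIs each, 10, 10 and 417 UMIs of Cd74 and 31, 48 and 12 UMIs of Plvap. Without them Cd74 stood at 173 CPM (147 to 201), H2-Aa at 46.9, H2-Ab1 at 37.3 and H2-Eb1 at 32.0 CPM, and Ciita, the class II regulator, was at 0 UMIs in all members. The median of the 4 class II genes compared, -0.80 with all members, was -2.46 without these 3. The third of these cells also held 513 UMIs of the chemokine Ccl4, 357 of Apoe and 162 of Ccl5, genes chosen after their values were seen. The summed level of the 10 macrophage markers was 173 CPM in the members, 192 in the other WT cells and 15615 in the 70 macrophage marker cells.

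Immediate early genes, which dissociation of tissue is known to induce, were higher in 7 of 14, lower in 1 and within 2-fold in 6 (median log2 0.95). Ier3 stood at 1185 against 16.0 CPM and Junb at 2830 against 301 CPM, while Fos (441 against 359 CPM, log2 -0.68) and Fosb (508 against 687 CPM, log2 -1.40) did not stand higher. Against only the other cells under the insulin limit, Fos was at log2 1.27 and Fosb at 0.53. Of 14 glycolysis genes, 4 were over 2-fold higher and 10 within 2-fold (median log2 0.65). The higher ones were Ldha, which makes lactate and is known to be low in beta cells (294 CPM, 261 to 330, against 4.13), Hk1, the low-Km hexokinase (72.8 against 0.994 CPM), the lactate exporter gene Slc16a3 (32.8 CPM, log2 3.79) and Pfkfb3 (30.8 CPM, log2 1.97). Gapdh was within 2-fold at 757 against 253 CPM (log2 0.61). Without the shift to the median gene, the list medians were 1.92 for immediate early genes and 1.62 for glycolysis, both past 2-fold. Of 10 proliferation genes only Pcna reached 20 CPM (153 CPM, log2 2.17), and Mki67, Cdk1, Ccnb1, Ccna2 and Birc5 were at 0 UMIs.

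Genes known from capillaries were found together in all 113 members, with 2 or more of 10 at 2 UMIs or more. By the same count, genes known from tip cells of sprouting vessels, Esm1 among them, were found in 99 members, arterial genes in 53, and venous and lymphatic genes in 1 each. The lists share genes with each other and with the rule, so these counts are not independent. Rgcc, a capillary gene, stood at 1515 against 11.4 CPM, and Car4 at 118 CPM. The 1 cell with venous and the 1 cell with lymphatic genes can be read from the counts of a single member, described after the pericyte genes.

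Outside the lists, the genes that stood highest relative to their error included several secreted proteins and lipid enzymes. Timp3, an inhibitor of matrix proteases, stood at 2770 CPM (2666 to 2876) against 5.90, in all 113 members, with 5 to 83 UMIs and a median of 23. Plpp3 and Plpp1, phosphatases of lipid phosphates, stood at 1149 and 863 CPM, Mgll, a monoglyceride lipase, at 438 CPM and Rbp7, a retinol binding protein, at 955 CPM with at most 74 UMIs in a cell. Cyp1a1, a target of the aryl hydrocarbon receptor, stood at 437 against 0.994 CPM and was found in 61 cells, with 41 UMIs in the highest. Stc1, a secreted glycoprotein, stood at 259 CPM in 65 cells. The other genes among the 20 were Arhgap31 (707 CPM), Ctla2a (620 CPM), Myct1 (376 CPM), Col13a1 (330 CPM), Tm4sf1 (718 CPM), Ltbp4 (475 CPM), Cyyr1 (281 CPM), Slc43a3 (366 CPM), Sparcl1 (399 CPM), Tinagl1 (344 CPM), Nrarp (280 CPM), Btnl9 (220 CPM) and Pcdh17 (229 CPM).

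On the lower side stood endocrine genes. All 9 beta cell markers were over 2-fold lower (median log2 -4.59). So were the 5 other hormone genes compared (median log2 -3.52) and the 4 duct markers compared (median log2 -3.60). The beta cell list holds Ins1 and Ins2, which the rule limited, so their side was set by the choice of members. The insulin limit also kept insulin-rich cells out, so the side of the whole beta cell list is no finding. The list summed to 26499.1 CPM in the members. Free RNA gives up to 25725.5 CPM of it, by the bound that takes all Ins2 in the members as free. Ins2 sets that bound, so the closeness of the 2 sums is built in. The 6 other islet hormone genes summed to 7923 CPM in the members and 8323 CPM in macrophage marker cells. The same bound gives only 3089 CPM of them in the members, and the source of the rest was not tested. The metallothionein genes Mt1 (707 against 4830 CPM, log2 -3.74) and Mt2 (430 against 2303 CPM), chosen after their values were seen, were lower as well. Hormone RNA was uneven over the members. Gcg, the glucagon gene, had 1023 and 916 UMIs in 2 members, 32 in the next and 14 in the median member. Ppy reached 282 UMIs in 1 member and 37 in the next, and Sst 233 and 5. No doublet caller was run, and the part of these hormone counts in the results was not tested.

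Variation among the members was measured with each cell thinned to the same limit, over 107 members without the 6 rich in haemoglobin. The variance over the mean (Fano factor, which is 1 for pure counting noise) had a median of 1.91 over 104 genes. It was highest for Cd74 (92.6), Clu (33.7) and Fabp4 (24.3), then Igfbp3 (11.9), Esm1 (9.16) and Ctgf (8.91). Cd74 and Clu had their highest counts, 417 and 142 UMIs, in 1 cell each, while Fabp4 was found in 87 members. Plvap stood at 7.26 and the caveolar gene Ptrf at 1.02. Over 45 pairs of 10 genes, Pearson's r across the 107 cells had a median of 0.277 and ran from -0.0986 to 0.644, the highest for Plvap with Ly6c1. The cells share 1 library and, for the rule genes, the rule, so these values describe the set only.

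Pericyte RNA was found in most members. Rgs5, a regulator of G protein signalling and a leading marker of pericytes, stood at 1619 CPM in the members, 4.06 in the other WT cells and 56.9 in macrophage marker cells. It had 2 or more UMIs in 77 of 113 members (68.1%, 58.7 to 76.6), where it ranged from 2 to 57 with a median of 21. A further 2 members had 1 UMI and 34 had 0, and 10 of the 77 lay near the limit with 2 to 4 UMIs. Members held 78.95% of all Rgs5 UMIs of the WT cells. Only 19 other cells had 2 or more (0.429%), and of the 7 other cells with 10 or more, 3 had at least 3 of the rule genes.

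The other pericyte markers followed Rgs5 cell by cell. Of the 34 members without an Rgs5 UMI, 32 had none of 13 other pericyte and smooth muscle markers, and the highest had 2 UMIs. Of the 77 with 2 or more, 63 had at least 3 UMIs of these markers, the median was 15, the highest 62, and 11 had 0. All 13 of the 14 pericyte and smooth muscle genes that reached 20 CPM were over 2-fold higher in the members than in the other WT cells (median log2 5.48). The 14 together held 8.92 CPM in the other WT cells and 2880 CPM in the members. They thus reached 20 CPM only through the members, so the floor set this count.

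**Figure D3:**
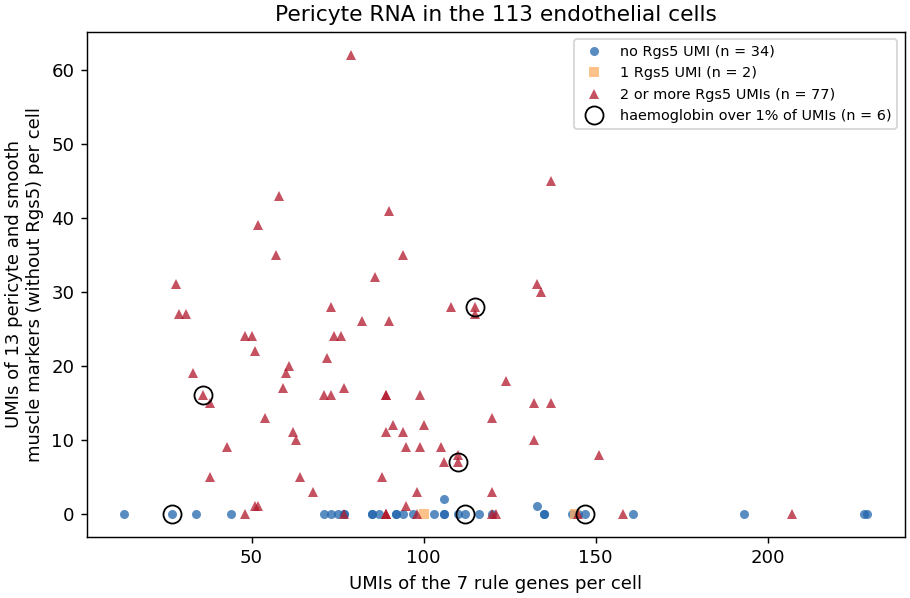
Each point is 1 of the 113 members: UMIs of the 7 rule genes (x axis) against UMIs of the 13 pericyte and smooth muscle markers other than Rgs5 (y axis), with shape and colour by Rgs5 UMIs (0, 1, 2 or more) and circles around the 6 cells rich in haemoglobin. Members with no Rgs5 UMI lie along the bottom, at 0 to 2 pericyte UMIs, while members with Rgs5 reach 62.

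Members with and without Rgs5 were compared as 74 against 31 cells, leaving out the 6 haemoglobin-rich cells and the 2 with 1 UMI (627066 and 251877 UMIs). Of 6317 genes compared, 552 (8.74%) were over 2-fold higher and 447 (7.08%) lower in the cells with Rgs5. The split was made on Rgs5, so its own level (2446 CPM against 0 UMIs) is no finding. The 12 other pericyte and smooth muscle genes compared were all higher, 9 of them at 0 UMIs in the cells without Rgs5, with a list median of 3.94 on the log2 scale when those are set at the limit that 3 counts give (11.9 CPM). Without Rgs5 itself the summed level of the list was 1875 against 11.9 CPM. All 12 thus reached 20 CPM only through the cells with Rgs5, so the floor fixed their side and the count is no finding.

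The pericyte and smooth muscle genes are contractile and mural genes. Acta2 and Tagln, the smooth muscle actin and transgelin genes, stood at 128 and 185 CPM against 0 UMIs, at least 10.7-fold and 15.5-fold higher. Pdgfrb, the receptor by which pericytes answer PDGF-B, stood at 201 against 3.97 CPM, and Des, the gene of desmin, at 118 against 3.97 CPM. Ndufa4l2 (397 CPM, at least 33.3-fold), Higd1b (220 CPM, at least 18.5-fold), Cox4i2 (212 CPM, at least 17.8-fold) and Myh11 (102 CPM, at least 8.57-fold) were likewise at 0 UMIs without Rgs5. Outside the pericyte list, and chosen after their values were seen, Mgp, an inhibitor of calcification, stood at 1107 CPM against 0 UMIs (at least 92.9-fold) and Cryab, a small heat shock protein gene, at 467 CPM (at least 39.2-fold).

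Some genes of the signalling lists, named here for their direction, followed the same split. Higher with Rgs5 were 3 of 9 Notch genes compared, 1 of 4 endothelin genes and 1 of 11 leukocyte adhesion genes. So were 1 of 2 VEGF ligands, 2 of 8 growth factors, 1 of 4 growth factor binding proteins and 1 of 21 transcription factors. Lower were 1 Notch, 2 adhesion and 1 binding protein gene. Over all genes compared 8.74% were higher and 7.08% lower. Notch3, the Notch receptor of mural cells, stood at 180 CPM against 0 UMIs (at least 15.1-fold), Heyl at 46.2 CPM against 0 UMIs (at least 3.88-fold) and Jag1 at 89.3 against 3.97 CPM. The endothelin receptor gene Ednra stood at 47.8 CPM against 0 UMIs (at least 4.02-fold), the chemokine gene Ccl2 at 90.9 CPM against 0 UMIs (at least 7.63-fold) and Pgf at 75.0 against 7.94 CPM. Ctgf (395 against 103 CPM), Igfbp5 (116 against 19.9 CPM) and Tcf15 (118 against 39.7 CPM) were higher with Rgs5 too. Of these genes, Notch3, Heyl, Ednra and Ccl2 had 0 UMIs in the cells without Rgs5. They reached 20 CPM only through the cells with Rgs5, so the floor fixed their side.

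In the other direction, Angpt2 stood at 84.5 CPM (63.3 to 111) with Rgs5 and 286 CPM (224 to 360) without, Hey1 at 47.8 against 143 CPM and Apln at 7.97 against 59.6 CPM. Apln was found in very few members, as given above, so its 2 levels rest on few cells and few counts. Of 5 angiopoietin and Tie genes compared, 1 was lower and 1 higher with Rgs5. Of the 7 rule genes 0 passed 2-fold: Plvap stood at 2966 against 4121 CPM (log2 -0.48), Flt1 at 1643 against 1926, Kdr at 1214 against 1437 and Cdh5 at 324 against 385 CPM. The median UMI count was 8121 with Rgs5 and 7450 without, and the median gene count 2753.5 and 2679. Whether a barcode held 1 cell or an endothelial cell and a pericyte was not tested.

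Macrophage RNA moved with the split as well. The 10 macrophage markers summed to 67.0 CPM with Rgs5 and 504 CPM without, with 7 of 7 compared lower, and class II genes to 440 and 2787 CPM, with 5 of 5 lower. The cells without Rgs5 include the member with 417 UMIs of Cd74 and a member with Marco UMIs described below. Without that member and the 3 with macrophage markers (73 against 28 cells), the marker sums were 38.9 and 42.4 CPM, and class II genes stood at 397 against 113 CPM, with 3 of 4 compared higher and 0 lower. In that comparison, chosen after seeing the data, 620 of 6347 genes (9.77%) were higher and 449 (7.07%) lower. The 12 pericyte genes were again all higher, a count again set by the floor, and Angpt2 stood at 82.6 against 297 CPM.

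**Figure D4:**
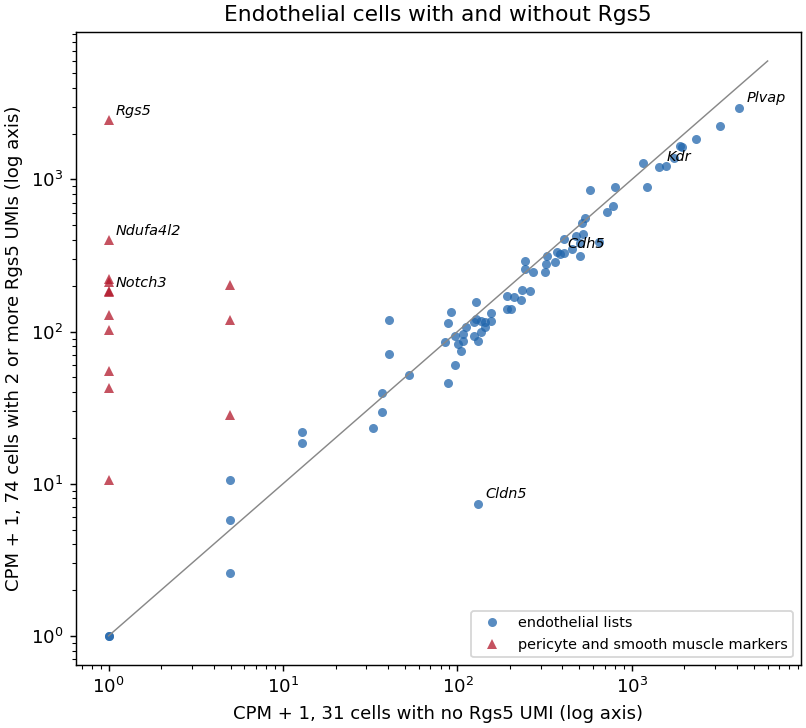
CPM + 1 on log axes in the 74 members with 2 or more Rgs5 UMIs (y axis) against the 31 without an Rgs5 UMI (x axis), haemoglobin-rich members left out, 1 point per gene of the endothelial lists (circles) and of the pericyte and smooth muscle markers (triangles); the line marks equal levels. Pericyte genes lie along the left edge, with Rgs5 at 2446 CPM against 0; Cldn5 stands apart through 1 cell with 32 of its 37 UMIs.

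The share with Rgs5 moved with the UMI count of the barcodes. Thinned to 2000 UMIs each, 69 of the 113 members had an Rgs5 UMI (61.1%, 51.4 to 70.1), against 34 of the 98 barcodes below the UMI limit that met the rest of the rule (34.7%, 25.4 to 45.0). Within the members, 36 of 57 cells at or under the median UMI count had 2 or more Rgs5 UMIs, and 41 of 56 above it. Fibroblast markers were sparse: Col1a2 stood at 28.7 CPM, at 44.7 CPM with Rgs5 and 0 UMIs without, and Lum and Pdgfra were at 0 UMIs in all members.

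Haemoglobin RNA lay in 6 members. In these it took 33.6% to 71.3% of the UMIs (median 55.1%) and they held 99.9% of all haemoglobin UMIs of the set, which made up 4.41% of its RNA. Of the other members 86 had 0, and outside the 6 the level was 44.9 CPM, with 17 of its 40 UMIs in 1 cell. Free RNA, read from droplets with 200 UMIs or fewer, stood at 435 CPM, which by the bound used above gives up to 28.0 CPM in the members, summed over the red cell markers. These 6 are members out of 7 WT cells with 1% or more haemoglobin. All 6 also had Alas2, the haem synthesis gene of red cell precursors, which was at 0 UMIs in the other members.

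The 6 cells carried the endothelial genes as well. Plvap ranged from 9 to 59 UMIs (median 38), Esm1 from 2 to 63 (median 17), Flt1 from 6 to 27 (median 9) and Kdr from 3 to 17 (median 6), and 3 of the 6 had 2 or more Rgs5 UMIs. They held a median of 13218 UMIs, of which 5532.5 were not haemoglobin. Over the whole set Hbb-bs stood at 18721 CPM, Hba-a1 at 12687, Hba-a2 at 8956 and Hbb-bt at 3754 CPM, though the last 300 bases of Hba-a1 and Hba-a2 are 94.3% alike and those of Hbb-bs and Hbb-bt 87.3%, so the split within each pair is uncertain. The red cell genes Slc4a1 and Hemgn were at 0 UMIs. The part of red cells or their RNA in these 6 barcodes was not tested.

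A single member met the rule with 4 of its 7 genes, without Flt1, Esm1 and Emcn. It held 11819 UMIs, with 19 of Plvap, 9 of Cdh5, 4 of Kdr and 2 of Pecam1, and 0 of Flt1, Esm1, Emcn, Igfbp3, Ly6c1 and Rgs5. Counts that set it apart, chosen after they were seen, were those of Marco, a scavenger receptor, with 146 UMIs, Clu (clusterin) with 142, Apoe with 48 and Cldn5 with 32. Lyve1, a hyaluronan receptor of lymphatic vessels and sinusoids, had 16 UMIs, Lrg1 had 12, Itga2b 9, all 7 UMIs of F8 lay here, and Nr2f2, a venous transcription factor gene, had 5. The lymphatic genes Reln, Pdpn and Prox1 had 4, 3 and 2 UMIs and Ccl21a had 0, while the macrophage markers C1qa, Lyz2, Csf1r, Ptprc and Cd68 were at 0. It is this cell that holds both the venous and the lymphatic count of 1, and with markers of several classes it was given no name.

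Acinar, Schwann, platelet and lymphocyte markers left few counts in the members, unlike the pericyte and islet hormone genes above. Lymphocyte markers summed to 36.9 CPM, against 62.0 CPM in the other WT cells and 4.12 CPM that free RNA would give. Acinar markers summed to 24.6 CPM, under the 43.7 CPM that free RNA would give, and no acinar, Schwann or platelet marker reached 20 CPM in either set.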

How the data were processed

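Single-cell RNA of WT islets was measured as UMI counts per gene and barcode. The deposited file is a matrix of whole-number counts which, per the file headers, holds 27998 genes and 737280 barcodes, cells and empty droplets together (118523180 UMIs). Read quality control and trimming (FastQC, Trimmomatic) and the build mm10 are named in the submitters' processing notes. No source used here names the aligner or the counter. Barcodes were used by their number in the matrix.

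The members, lists and comparisons were chosen with earlier results of these data known. Of 4550 barcodes at the UMI limit, 9 were removed by the limits on genes and mitochondrial UMIs. Counts were summed over the cells of a set, scaled to CPM, and compared by log2 of (CPM + 1), relative to the median of genes at 20 CPM or more in either set. A gene past 2-fold was counted as higher or lower. No count model was used, as 1 library per group allows none. No doublet caller was run, and barcodes shared between libraries were not counted, since the transgenic library was not analysed here. Macrophage marker cells had at least 3 of 10 macrophage markers at 2 UMIs or more, and were no members. Free RNA was read from 589592 droplets with at most 200 UMIs (9842505 UMIs). A gene at 0 UMIs in the members allows up to 3 counts (3.08 CPM), and fold bounds use 3 counts over the whole group.

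Named genes were all markers, rule genes and members of lists with at most 12 genes or of other cell types, the 4 highest and 2 lowest of longer lists, and the 20 genes in no list with the highest lower bound of the log2 ratio. Only part of them is printed, some results are not reported here, and others are said to be chosen after their values were seen. Gene positions are those of GENCODE on GRCm38, and promoters and the microRNA those of RefSeq. A 3′ count depends on the annotated transcript end, so levels are not ranked between genes. On simulated counts of 4086 genes, 50 of 50 genes changed 4-fold were called, and 9 of 3887 unchanged ones. Both simulated sets came from the profile of the other WT cells with counting noise only. The changed genes stood at 20 CPM or more in that profile, and most genes were unchanged. The simulation thus checks the calculation and does not give the error rate in these data. Alternatives covered the scaling, the floor, the pseudocount, the weight of cells, the member rule, the comparison set and free RNA. Python 3.11.15, numpy 2.4.6, scipy 1.17.1, pandas 2.3.3, biopython 1.88 and matplotlib 3.10.9 were used.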

Additional observations from a re-analysis of the deposited data

How the results depend on the processing

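With 1 library, nothing here measures the spread between mice, and 113 cells of about 8048 UMIs each leave genes under 20 CPM to a few counts. Against 1477 genes higher and 1403 lower, CPM without the shift to the median gene gave 3101 and 683, and a total without hormone and mitochondrial UMIs, also without the shift, gave 1486 and 2458. No floor gave 5060 and 2309, and a floor of 50 CPM gave 852 and 696. The share of endothelial cells was 4.26% of barcodes of at least 2000 UMIs, and the share of members with Rgs5 was then 52.1%, an alternative chosen after seeing the data. The median of the VEGF ligands moved to 0.66 without a floor. Without the haemoglobin-rich members, Hba-a1 moved to -1.68 and Hbb-bs to -2.09. Against other cells under the insulin limit, Cd36 moved to -0.0038 and Fosb to 0.53. Causes were not tested. Of 537 medians of lists under 14 settings, 520 kept their side of 2-fold, and 8 of these, in 3 lists within 2-fold (class II, macrophage markers, insulin and IGF receptors), changed sign. No paired analysis was possible because the result comes from 1 library and no test.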
